A study of Homo sapiens with 36 samples.

Results

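The data described here are the transcriptional response of NEUROD1-positive H446 cells to JQ1. H446 is an established cell line from a small cell lung cancer (SCLC), labelled as the SCLC-N subtype, which is named for high NEUROD1. The libraries were chosen by label: 18 of the 36 libraries of the series come from 3 control clones (3, 10 and 13), which carry a non-targeting guide RNA and a wild-type NEUROD1 label, and the other 18 come from 3 clones edited with 1 NEUROD1 guide. All 6 clones derive from H446 and were grown in RPMI with serum, so each clone is also a limit of the model: differences between clones can stem from the clone as well as from its label. For each control clone there were 3 biological replicates with JQ1 (1 µM, 24 hours) and 3 with the solvent DMSO (24 hours), so 9 libraries stood against 9. The labels do not say whether biological replicates of a clone came from separate cultures. The clone was therefore taken as the replicate (n = 3), and the response of a gene is the JQ1 minus DMSO difference of mean log2(normalized count + 1) within each clone, averaged over the 3 clones.

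BET proteins, such as BRD2 and BRD3, bind acetylated lysines on histones and transcription factors through paired bromodomains, and help RNA polymerase II leave its pause near the promoter by bringing in the kinase P-TEFb. JQ1 occupies the acetyl-lysine pocket of these bromodomains and releases BET proteins from chromatin. NEUROD1 is a basic helix-loop-helix (bHLH) factor that activates neuronal and neuroendocrine genes as a dimer with an E protein. The title of the series sets the question: whether BET inhibitors act on this subtype through the transcription that NEUROD1 drives.

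The control libraries held 13282337 to 17608539 whole reads (median 15973208), of the same order in both treatments. The subtype label was checked against its markers. NEUROD1 ran from 5134 to 6523 normalized counts with DMSO, median 6209, and from 5939 to 8692 with JQ1, median 6432. INSM1, a neuroendocrine zinc-finger repressor, lay between 2065 and 3259.7 in these libraries, and SYP, the vesicle protein synaptophysin, between 2041 and 2549.8. YAP1 did not exceed 6.18, while POU2F3 has no row in the table of normalized counts. The levels of these markers match the labelled subtype. The JQ1 libraries of clone 13 stood apart. Pairs of replicates within a clone and treatment differed by a chi-square per degree of freedom of 2.16 to 4.12 elsewhere, but by 5.03, 7.71 and 12.98 in clone 13 with JQ1, the last between replicates 1 and 2. Replicate 1 also had the fewest reads and traces of other transcripts. The 14 markers of lung, blood and stroma that are in the table but failed the expression filter summed to 225 normalized counts in it, against 16.1 to 34.3 in the other 8 JQ1 libraries and 22.3 to 66.0 in the DMSO libraries. CEACAM6, an epithelial surface protein, was at 80.4 in that library and at 0 in the other 17, and at 46010 in JQ1 replicate 1 of edited clone 12.

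JQ1 moved most of the genes tested, and the larger changes were mostly falls. A gene was tested if 9 or more of the 18 libraries reached 10 normalized counts. Of the 14449 such genes, 9126 (63.2%) passed the test (limma on the 3 clone differences, two-sided, Benjamini-Hochberg adjusted p under 0.05), 4468 higher (30.9%) and 4658 lower (32.2%). Past the threshold, at least 2-fold and in 1 direction in every clone, 531 genes were higher (3.67%) and 1212 lower (8.39%). The libraries of the treatments did not overlap for 3249 genes (22.5% of those tested). Falls outnumbered rises at every level of expression: among 3967 genes with a mean of at least 1000 normalized counts, 72 were at least 2-fold higher and 124 at least 2-fold lower, and among 3673 genes with a mean under 100, 259 and 563. Scaling all libraries to equal totals left 9040 genes past the threshold, 3725 higher and 5315 lower, and moved the median of all genes to -0.07 on the log2 scale, the lowest among the scalings tried. Because RNA came from whole cultures, fewer cells that express a gene and less of its RNA per cell cannot be told apart.

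**Figure D1:**
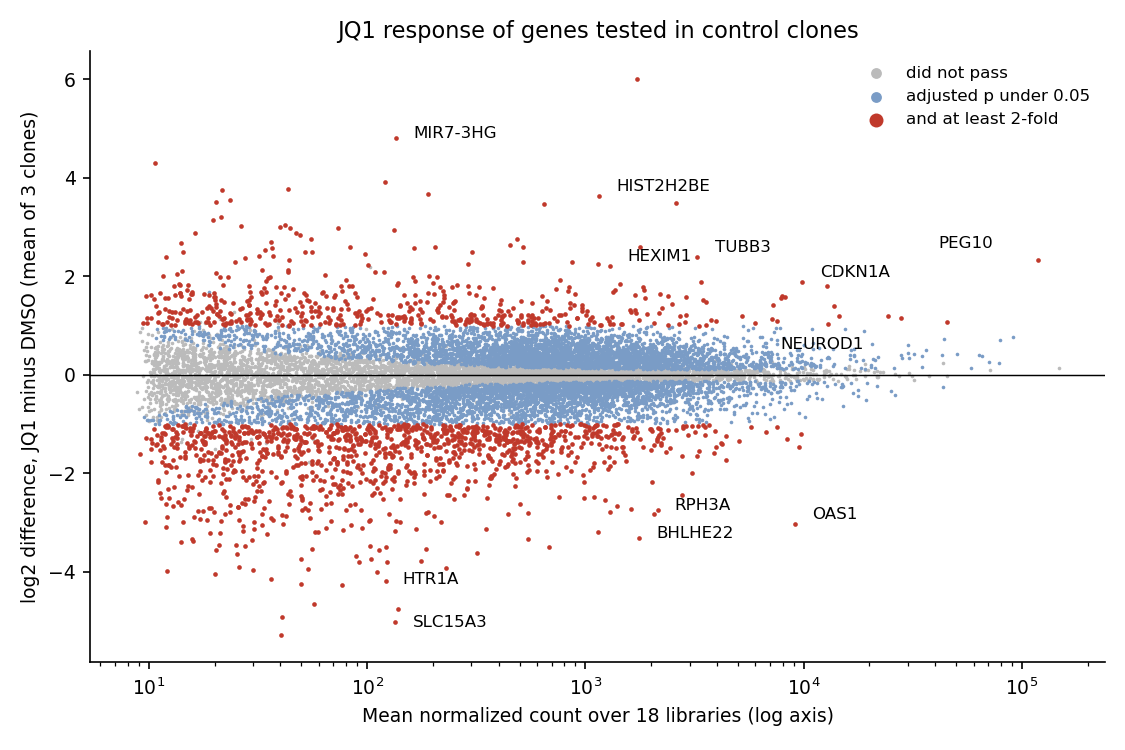
JQ1 response of the 14449 genes tested in control clones. Each point is a gene; the x axis is its mean normalized count over 18 libraries (log axis), the y axis the log2 difference of JQ1 minus DMSO averaged over 3 clones. Grey genes did not pass the test, blue genes passed it (adjusted p under 0.05), and red genes also changed at least 2-fold in 1 direction in every clone (531 higher, 1212 lower). NEUROD1 sits close to 0 (0.23), BHLHE22 at -3.31 and HEXIM1 at 2.22.

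NEUROD1 messenger RNA was slightly higher with JQ1 in a call that depended on the setting, while more of the other neural transcription factors fell than rose. The NEUROD1 difference was 0.23 ± 0.08 (SE, n = 3 clones; limma adjusted p = 0.0336) and varied by clone, 0.43 in clone 3, 0.25 in clone 10 and 0.01 in clone 13. It did not pass without clone 3 (0.13, adjusted p = 0.114) or without clone 10 (0.22, adjusted p = 0.104), nor with equal library totals (0.16, adjusted p = 0.104). Of 43 neural transcription factors tested, 22 fell and 11 rose, 10 of the falls and 1 of the rises by at least 2-fold, or 51.2% and 25.6% against 32.2% and 30.9% of all genes tested, with a median of -0.35 beside 0.00 over all genes tested. BHLHE22, a bHLH repressor of cortical and retinal neurons, was the member with the largest fall. It ran from 1946 to 4071 normalized counts with DMSO, median 3615, and from 230.4 to 385 with JQ1, median 305. The groups did not overlap, and the difference was -3.31 ± 0.14 (adjusted p = 1.34e-05), largest in clone 13 (-3.74) and smallest in clone 3 (-2.91; adjusted p of the difference between clones = 2.63e-05).

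NEUROD2, a factor of the same family as NEUROD1, ran from 184 to 692 normalized counts with DMSO, median 540.4, and from 41.7 to 199 with JQ1, median 107. Its groups overlapped across clones, and the responses were -2.11, -2.18 and -2.20 in clones 3, 10 and 13 (adjusted p of the clone difference = 0.961). SCRT2, a neuronal repressor of the Snail family, fell by 1.89 on the log2 scale (adjusted p = 2.82e-05), from a median of 172 to 38.4, with no overlap. NKX2-2, a homeobox factor of ventral spinal cord and neuroendocrine cells, fell by 2.17, and NKX2-1, the lung and forebrain homeobox factor, by 1.33. NHLH1, ST18, MYT1L and RUNX1T1 also fell, with differences of -1.62, -1.59, -1.26 and -1.18 on the log2 scale. INSM1 (-0.05), SOX2 (0.04) and POU3F2 (-0.01) did not pass the test. HES6, a HES-family factor that favours neuronal differentiation, went the other way. It ran from 968 to 2214 normalized counts with DMSO, median 1289, and from 4511 to 7099 with JQ1, median 5039, a difference of 1.89 ± 0.12 (adjusted p = 3.51e-05) with no overlap.

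E proteins, the dimer partners of NEUROD1, and ID proteins, which bind E proteins without contacting DNA, moved in opposite directions. All 3 E proteins fell: TCF4 by 0.64 (adjusted p = 3.53e-05), TCF3 by 0.56 and TCF12 by 0.52 on the log2 scale. Of 4 ID genes, ID1, ID2 and ID3 rose and ID4 (-0.20) did not pass. ID1 ran from 303 to 517 normalized counts with DMSO, median 371, and from 1517 to 2378 with JQ1, median 1928. Every JQ1 library was above every DMSO library, and the difference was 2.25 ± 0.10 (adjusted p = 1.47e-05). ID3 rose by 1.78 and ID2 by 0.88. The ID3 libraries overlapped (235 to 1099 with DMSO, 777 to 4651 with JQ1), although each clone rose by at least 1.65.

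Genes for neurotransmitter receptors and ion channels, which set the excitability of neurons, fell more often than they rose. Among 25 receptor genes tested, 14 fell, 10 of them at least 2-fold, and 4 rose, with a median of -0.54; 56% fell and 40% fell at least 2-fold, against 32.2% and 8.39% of all genes tested. HTR1A, the serotonin receptor 1A, ran from 138 to 377 normalized counts with DMSO, median 186, and from 2.88 to 30.9 with JQ1, median 12.7. The groups were far apart, and the difference was -4.19 ± 0.16 (adjusted p = 1.15e-05). CHRNA3, the ganglionic nicotinic receptor subunit alpha 3, ran from 1168 to 4335 normalized counts with DMSO, median 1919, and from 246 to 575 with JQ1, median 267, a difference of -2.65 ± 0.13 (adjusted p = 1.79e-05) with no overlap. GRIK3, a kainate receptor subunit, fell by 1.54, with the response -2.36 in clone 3 and -0.90 in clone 13 (adjusted p of the clone difference = 9.39e-12).

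Of 28 voltage-gated channel genes tested, 18 fell and 4 rose (64.3% and 14.3%; median -0.44), and of 13 other potassium channel genes and their auxiliary proteins, 11 fell and 0 rose (median -0.89), where 32.2% of all genes tested fell and 30.9% rose. SCN2A, a neuronal sodium channel, ran from 514 to 701 normalized counts with DMSO, median 599, and from 96 to 168 with JQ1, median 147. All JQ1 libraries were below all DMSO libraries, and the responses by clone were close (-1.96, -2.24 and -2.07). KCND3, which carries transient outward potassium current, fell by 1.92, SCN3A by 1.72 and CACNB4, a calcium channel beta subunit, by 1.78. KCTD16, an auxiliary subunit of GABA-B receptors, fell by 1.80, and KCNJ3 and KCNJ4, inward rectifiers, by 1.01 and 1.17.

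Genes of neuronal wiring and of neuronal RNA processing followed the same direction with exceptions. Of 36 axon guidance genes tested, 20 fell and 10 rose (median -0.31), a share of falls of 55.6% against 32.2% of all genes and of rises of 27.8%, near the 30.9% of all genes. SEMA3D, a secreted semaphorin, ran from 141 to 805 normalized counts with DMSO, median 348, and from 13.6 to 40.0 with JQ1, median 21.1, a difference of -3.92 ± 0.21 (adjusted p = 2.28e-05). SEMA3A fell by 1.86, its receptor component PLXNA2 by 1.77 and the netrin NTN4 fell by 1.94. Of 28 IgLON and neural adhesion genes, 16 fell (57.1%) and 4 rose (14.3%). CNTN2, a contactin of axons, fell by 2.78, from a median of 226 to 28.1, with libraries of clone 3 with DMSO reaching down to 52.1. LSAMP, an IgLON, fell by 1.78 with no overlap, and CNTNAP2, a partner of potassium channels at axons, rose by 1.25. Of 20 neuronal splicing and RNA-binding genes, 11 fell (55%) and 6 rose (30%). RBFOX3, a splicing factor known as the neuronal marker NeuN, fell by 2.31, ELAVL4, a neuronal RNA-stabilising protein, by 1.36, and the progenitor RNA-binding proteins MSI1 and MSI2 by 2.14 and 1.43.

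Secretory and cytoskeletal genes of neurons did not share 1 direction. Of 36 synaptic vesicle and exocytosis genes, 15 rose and 11 fell (median 0.09); the falls (30.6%) were near the 32.2% of all genes and the rises were 41.7% against 30.9%. RPH3A, rabphilin, a RAB3 effector on vesicles, ran from 2442 to 5511 normalized counts with DMSO, median 3196, and from 305 to 985 with JQ1, median 462, a difference of -2.74 ± 0.08 (adjusted p = 7.35e-06). STX1A, the syntaxin of the release machinery, ran from 803 to 1778 normalized counts with DMSO, median 1564, and from 2806 to 4828 with JQ1, median 3202. RPH3A and STX1A thus moved in opposite directions with no overlap in either. CADPS, which primes dense-core vesicles, fell by 2.16, although its DMSO level reached down to 13.8.

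Granin and prohormone genes also split, 2 up and 4 down of 10 tested (20% and 40%). VGF, a granin precursor of neuropeptides, ran from 350.0 to 672 normalized counts with DMSO, median 452, and from 1529 to 4633 with JQ1, median 3084, a difference of 2.60 ± 0.11 (adjusted p = 1.34e-05) with no overlap. CHGA, chromogranin A, rose by 0.43, while PCSK1, a prohormone convertase, fell by 0.63 and ADCYAP1, the neuropeptide PACAP, by 1.79. Of 29 growth cone and neuronal cytoskeleton genes, 14 rose (48.3%) and 10 fell (34.5%), the falls near the 32.2% of all genes. TUBB3, the neuronal beta-tubulin, ran from 732 to 1629 normalized counts with DMSO, median 903, and from 4194 to 6600.0 with JQ1, median 5804. DCX, doublecortin, which bundles microtubules in migrating neurons, ran from 346 to 1088 normalized counts with DMSO, median 371, and from 72.2 to 315 with JQ1, median 93.8. The tubulin rose by 2.39 and doublecortin fell by 2.01 on the log2 scale, each with separate groups.

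**Figure D2:**
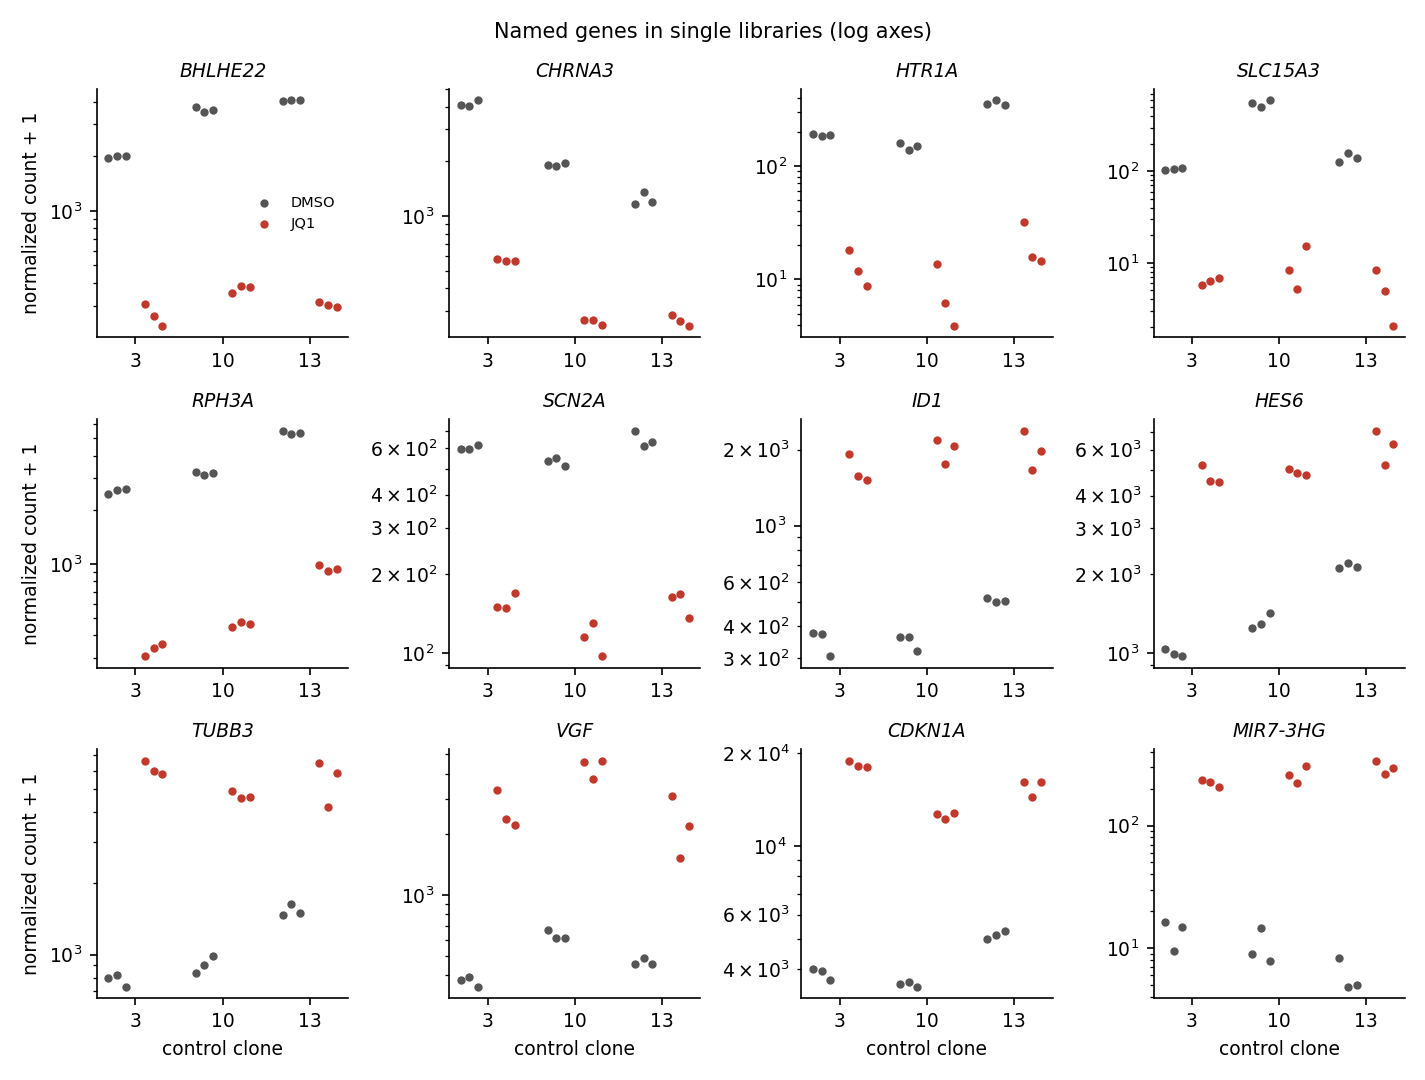
Normalized counts of 12 named genes in every library of the control clones. Each point is 1 library, grey for DMSO and red for JQ1, placed by clone (3, 10, 13); y axes are logarithmic, show normalized count + 1 and differ between panels. In BHLHE22, CHRNA3, HTR1A, SLC15A3, RPH3A and SCN2A all JQ1 points lie below all DMSO points, and in ID1, HES6, TUBB3, VGF, CDKN1A and MIR7-3HG they lie above.

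Among cell cycle genes, the CDK inhibitors CDKN1A and CDKN2B and the E cyclins rose and nearly all mitotic genes fell. Of 25 CDK inhibitors, cyclins and E2F genes tested, 10 rose (40%) and 9 fell (36%), near the 30.9% and 32.2% of all genes tested. CDKN1A, the p21 inhibitor, ran from 3503 to 5311 normalized counts with DMSO, median 3949, and from 12270.0 to 18915 with JQ1, median 16175, a difference of 1.89 ± 0.11 (adjusted p = 2.71e-05) with no overlap. CDKN2B, the p15 inhibitor of CDK4 and CDK6, rose by 1.66, CCNE2, a cyclin of S-phase entry, by 1.62, and E2F1 by 0.39. CDKN1B, the p27 inhibitor, fell by 0.36, E2F8, a repressor of E2F targets, by 1.83, and CDK4 and CDK6 by 0.48 and 0.59. Of 47 DNA replication genes tested, 19 rose (40.4%) and 16 fell (34%), also near those shares. PCNA, the polymerase clamp, ran from 3704 to 4140.4 normalized counts with DMSO, median 3910.1, and from 7737 to 8557 with JQ1, median 8037, and rose by 1.05. SLBP, which binds the stem-loop of histone messages, rose by 1.11, and POLE2, a polymerase epsilon subunit, fell by 1.14. In the homologous recombination and Fanconi list 11 rose (31.4%) and 17 fell (48.6%) of 35, and FANCD2, the central Fanconi protein, fell by 2.26, from a median of 762 to 164.

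The mitosis list had the largest share of calls in 1 direction among falling lists: 54 of 56 genes fell, 34 at least 2-fold, and none rose (median -1.05). These falls were 96.4% and 60.7% of the list, against 32.2% and 8.39% of all genes tested. BUB3 and CKAP2, at 0.01 and 0.03, did not pass. The libraries did not overlap for 51 of the 56, against 22.5% of all genes tested. FOXM1, a transcription factor of mitotic genes, ran from 2429.5 to 4324 normalized counts with DMSO, median 3375, and from 537 to 854 with JQ1, median 759, a difference of -2.18 ± 0.06 (adjusted p = 7.35e-06). KIF14, a kinesin of cytokinesis, fell by 1.88, ESPL1, separase, by 1.86 and CENPA, the centromere histone, by 1.30. PLK1, the polo-like kinase of mitotic entry, chosen here after its values were seen, ran from 2946 to 3359.9 normalized counts with DMSO, median 3184, and from 789.9 to 1573 with JQ1, median 1360.4, and fell by 1.39.

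The fall of mitotic genes was deepest in clone 13. In clones 3, 10 and 13 the list medians were -0.83, -0.97 and -1.37, and all 56 genes had their lowest response in clone 13. A test of the clone by treatment interaction on single libraries passed for 50 of the 56 (89.3%), against 10.8% of all genes tested. Each JQ1 library of clone 13, set against the DMSO mean of its clone, gave a list median of -1.45, -1.31 and -1.34, while the 3 libraries of clone 3 gave -0.89, -0.84 and -0.78 and those of clone 10 gave -1.005, -0.93 and -0.97. Without JQ1 replicate 1 of clone 13, an alternative added after the data were seen, the clone 13 median was -1.32.

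**Figure D3:**
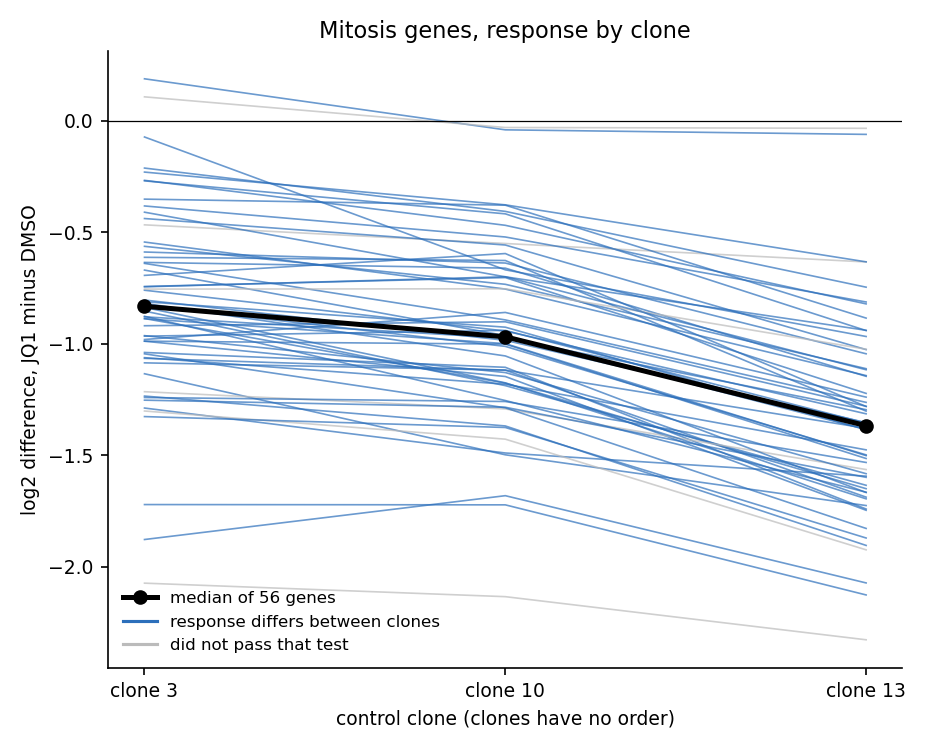
Response of the 56 mitosis genes in each control clone. Each thin line is a gene and joins its log2 difference (JQ1 minus DMSO, y axis) in clones 3, 10 and 13, which have no order; blue lines passed the test of a difference between clones and grey lines did not. The black line is the median, -0.83, -0.97 and -1.37, and lies lowest in clone 13.

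Promoter windows were read for mitosis and histone genes because members of each list moved together. RefSeq windows on GRCh38.p14 run from 250 bases before to 50 bases after the annotated start, and the first window of each gene was used. They were found for 48 of 56 mitosis genes and 24 of 26 histone genes tested. The letters TTTGAA on either strand, the core of the cell cycle homology region known from G2 and M phase promoters and added to the search after the values were seen, stood in 32 mitosis windows (66.7%), against 15.4% of all 27305 RefSeq windows, which include genes not expressed here. CCAAT or ATTGG stood in 75% of mitosis and 79.2% of histone windows, against 35.7% of all windows. TATAAA or TTTATA stood in 62.5% of histone windows and 6.25% of mitosis windows, against 12% of all windows. Windows were matched for 10640 of the 14449 genes tested, under 80%, and in these TTTGAA stood in 9.39% and TATAAA in 5.50%, so no lower share of TATAAA in mitosis windows is read from these values. PLK1 is shown as a falling mitotic gene and HIST2H2BE (H2BC21 in RefSeq) and HEXIM1 as rising genes. Capitals mark the matches to these motifs on either strand, TTTGAA being searched in PLK1 alone.
PLK1 (chromosome 16, plus strand, chr16:23678639-23678938): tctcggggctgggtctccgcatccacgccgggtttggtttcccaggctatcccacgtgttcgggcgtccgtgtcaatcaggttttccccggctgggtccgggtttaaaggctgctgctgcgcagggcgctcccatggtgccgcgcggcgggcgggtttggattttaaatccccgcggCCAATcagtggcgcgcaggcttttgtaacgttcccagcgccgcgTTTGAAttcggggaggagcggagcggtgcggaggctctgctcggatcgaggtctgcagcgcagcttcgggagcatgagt
HIST2H2BE (chromosome 1, minus strand, chr1:149886633-149886932): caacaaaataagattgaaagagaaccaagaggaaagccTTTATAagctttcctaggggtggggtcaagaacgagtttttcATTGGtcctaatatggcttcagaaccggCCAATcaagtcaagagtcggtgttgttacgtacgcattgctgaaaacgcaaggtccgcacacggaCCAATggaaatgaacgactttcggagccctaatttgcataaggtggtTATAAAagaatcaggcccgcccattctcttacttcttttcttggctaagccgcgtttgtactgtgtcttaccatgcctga
HEXIM1 (chromosome 17, plus strand, chr17:45148225-45148524): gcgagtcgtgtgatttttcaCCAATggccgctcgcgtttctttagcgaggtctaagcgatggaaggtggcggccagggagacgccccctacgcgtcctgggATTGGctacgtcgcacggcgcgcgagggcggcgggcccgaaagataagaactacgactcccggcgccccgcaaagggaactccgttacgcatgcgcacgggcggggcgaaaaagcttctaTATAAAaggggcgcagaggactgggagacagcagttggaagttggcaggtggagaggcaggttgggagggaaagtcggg
In these windows the TATAAA of HIST2H2BE starts 30 bases and that of HEXIM1 29 bases before the annotated start, and TTTGAA of PLK1 starts 29 bases before it. A match of letters is a description of the window and not a measured binding site. Windows were found for 368 of the 531 genes at least 2-fold higher and 874 of the 1212 at least 2-fold lower, under 80% of each, so the comparison of motif shares planned for them is void and is not given.

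Replication-dependent histones, whose messages normally lack a poly(A) tail, were read here from poly(A)-selected libraries. Of 26 tested, 25 rose (96.2%), 24 at least 2-fold, and none fell (median 2.58). Of all genes tested, 30.9% rose, and 3.67% rose at least 2-fold. The libraries of the treatments did not overlap for 18 of the 26 histones, where 22.5% of all genes tested did not overlap. HIST2H2BE ran from 50.3 to 329.7 normalized counts with DMSO, median 170.1, and from 644 to 3500.2 with JQ1, median 2330.2, with clone differences of 3.80, 3.46 and 3.65. HIST1H2BC rose from a median of 11.7 to 281 and HIST1H4H from 28.6 to 236. Near-identical copies such as HIST2H4A and HIST2H4B share reads, so their single values are uncertain. Of 10 histone variants that are not tied to replication, 7 rose (70%) and only CENPA fell (10%). H3F3B, an H3.3 gene, was at 1.03 and H2AFX at 1.04.

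Of the BET and P-TEFb genes, HEXIM1 and BRD2 rose most, and the direction was not shared by the whole list. HEXIM1, which holds P-TEFb inactive, ran from 396 to 494 normalized counts with DMSO, median 461, and from 1812 to 2452 with JQ1, median 2115, with clone differences of 2.30, 2.10 and 2.25. Its paralog HEXIM2 fell by 1.08. ELL2, an elongation factor, rose by 1.02 and BRD2 by 1.60, while BRD3 rose by 0.38. Of 21 genes in this list 11 rose (52.4%) and 3 fell (14.3%), where 30.9% and 32.2% of all genes tested did. In the MYC, MAX and MXD list of 12 genes, 6 rose (50%) and 3 fell (25%). MYC ran from 839 to 2525 normalized counts with DMSO, median 2374, and from 2259 to 5384 with JQ1, median 3911, with overlapping groups, a rise of 1.08 that differed between clones (1.50, 0.69 and 1.05 in clones 3, 10 and 13; adjusted p = 1.91e-06). MXD1 and MXD4, which compete with MYC for MAX, rose by 0.90 and 0.99, and MXD3 fell by 0.70.

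Within the BCL2 family, which sets the threshold of mitochondrial apoptosis, the largest rises were in BH3-only genes, though BH3-only genes also fell. PMAIP1 (NOXA), which neutralises MCL1, ran from 495 to 764 normalized counts with DMSO, median 610.2, and from 1623 to 2604 with JQ1, median 2077, a difference of 1.73 ± 0.11 (adjusted p = 3.05e-05). BCL2L11 (BIM), which binds all anti-apoptotic members, ran from 285 to 368 normalized counts with DMSO, median 309, and from 803 to 1108 with JQ1, median 914. Neither gene had overlapping groups, and BCL2L11 rose by 1.59. BBC3 (PUMA) rose by 0.85 and MCL1 by 0.69, while HRK, a neuronal BH3-only gene, fell by 0.96 and BMF, another, by 0.40. BCL2 (0.22, adjusted p = 0.222), BAX (0.02) and BAK1 (0.15) did not pass. Of 17 members tested, 6 rose (35.3%) and 4 fell (23.5%), near the 30.9% and 32.2% of all genes tested.

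AP-1 and immediate early genes rose more often than they fell, and the stress list of ATF4 and the unfolded protein response did not. Of 40 AP-1 and immediate early genes tested, 24 rose and 5 fell, 14 and 3 of them at least 2-fold; 60% rose, against 30.9% of all genes tested. ATF3, a stress-induced repressor, ran from 66 to 131 normalized counts with DMSO, median 91.9, and from 312 to 606 with JQ1, median 478. TXNIP, a thioredoxin inhibitor, rose by 1.70 and MYADM fell by 2.19, each with no overlap. In the ATF4 and unfolded protein list 12 rose (33.3%) and 15 fell (41.7%) of 36. ATF5 rose by 1.55, and NUPR1, a stress-induced chromatin protein, fell by 2.81, with responses of -1.76, -3.78 and -2.89 in clones 3, 10 and 13 (adjusted p of the clone difference = 3.37e-05). SLC7A11, the cystine transporter, fell by 1.24 on average but by 0.07 in clone 3 and 2.19 in clone 13, and its adjusted p was 0.0583 without clone 13.

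Metabolic lists held rises and falls, with a few large members. Of all genes tested, 30.9% rose and 32.2% fell. Of 12 polyamine genes 7 rose and 1 fell (58.3% and 8.33%). SAT1, which acetylates polyamines for export, ran from 96 to 158 normalized counts with DMSO, median 125, and from 633 to 954 with JQ1, median 748, and ODC1, the first enzyme of their synthesis, from 3118 to 4673 normalized counts with DMSO, median 3965, and from 7301 to 13814 with JQ1, median 11455. Both enzymes rose with no overlap, by 2.64 and 1.42. Of 35 sterol and fatty acid synthesis genes 17 rose and 9 fell (48.6% and 25.7%), with IDI1, an isoprenoid enzyme, at 1.48. Of 37 glycolysis and hypoxia genes 19 rose and 4 fell (51.4% and 10.8%). PKM, pyruvate kinase, rose from a median of 17974 to 39473. FTL, the ferritin light chain, rose by 1.59 and ME1, malic enzyme, fell by 1.72. Their NRF2 and glutathione list held 16 rises and 8 falls of 32 (50% and 25%). Oxidative phosphorylation genes were near even (14 up, 13 down of 46, or 30.4% and 28.3%), with SDHA at 0.91. Of 53 nucleolar ribosome biogenesis genes 27 fell and 19 rose (50.94% and 35.85%), none by 2-fold. In the autophagy and lysosome list 22 rose and 6 fell of 49 (44.9% and 12.2%). SQSTM1, an autophagy receptor, was at 0.83 and GPNMB at -2.05.

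Interferon-stimulated genes went both ways, and MHC class I presentation genes fell more often than they rose. OAS1, an antiviral synthetase that is abundant in these cells, ran from 7825 to 27692 normalized counts with DMSO, median 13424, and from 1477 to 2465 with JQ1, median 1557, a difference of -3.02 ± 0.17 (adjusted p = 2.55e-05) with no overlap. OAS3 fell by 1.83 and IFI44L by 1.91, while DDX58, the RNA sensor RIG-I, rose by 1.17. Of 14 such genes tested 6 fell (42.9%) and 4 rose (28.6%), against 32.2% and 30.9% of all genes tested. At least 2-fold falls made up 35.7% of the 14, against 8.39% of all genes tested. In the MHC class I list 7 of 10 genes fell and 3 rose (70% and 30%, against 32.2% and 30.9% of all genes; median -0.39). HLA-E rose by 0.65, whereas ERAP1, which trims peptides, fell by 1.79.

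TGF-beta and receptor kinase genes fell more often than they rose. In calls of any size, Notch and Wnt genes were near the shares of all genes. Of 30 TGF-beta and BMP genes 16 fell and 4 rose (53.3% and 13.3%, against 32.2% and 30.9% of all genes). INHBE, an activin subunit, fell by 3.11 and NOG, the BMP antagonist noggin, by 2.13, each with separate groups. TGFB3 fell by 1.76 on average, -0.85 in clone 3 and -2.32 in clone 10 (adjusted p of the clone difference = 8.14e-12). Of 29 receptor kinases and ligands 16 fell (55.2%) and 7 rose (24.1%). FGFR3 ran from 6.38 to 23 normalized counts with DMSO, median 12.7, and from 50.9 to 137 with JQ1, median 77.8, a rise of 2.50, and NTRK3, a neurotrophin receptor, from 839 to 1667 normalized counts with DMSO, median 1270.3, and from 239.8 to 674 with JQ1, median 522, a fall of 1.40. Among 31 Wnt genes 12 fell (38.7%) and 8 rose (25.8%), with the receptor FZD2 at -2.59. The Notch list held 8 rises and 7 falls of 22 (36.4% and 31.8%). At least 2-fold, 6 Wnt genes fell (19.35%) and 2 rose, and 3 Notch genes fell (13.64%) and 3 rose. Of all genes tested, 8.39% fell and 3.67% rose at least 2-fold. Both LFNG, which glycosylates Notch, (1.92) and the Notch target NRARP (1.39) rose. COL1A2, a chain of type I collagen, ran from 1462 to 4726 normalized counts with DMSO, median 4512, and from 115 to 974 with JQ1, median 699, and ZEB2 fell by 1.56.

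Most markers of lung, blood and stroma that passed the filter also fell. Of 32 listed, 21 were in the table and 7 were tested. Of these, 5 fell and 1 rose (71.4% and 14.3%, against 32.2% and 30.9% of all genes tested). The sum over the list lay between 5984 and 13784 normalized counts with DMSO and between 2302 and 6010 with JQ1. CDH5, the cadherin of endothelium, made up 58.1% to 84.4% of it in 15 libraries and 39.8% to 48.2% in the JQ1 libraries of clone 13, at 4303 to 8474 normalized counts with DMSO, median 5101, and 1164 to 4404 with JQ1, median 2006, while PTPRC, VWF and SFTPC did not pass the filter. Their part in the result was not tested.

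**Figure D4:**
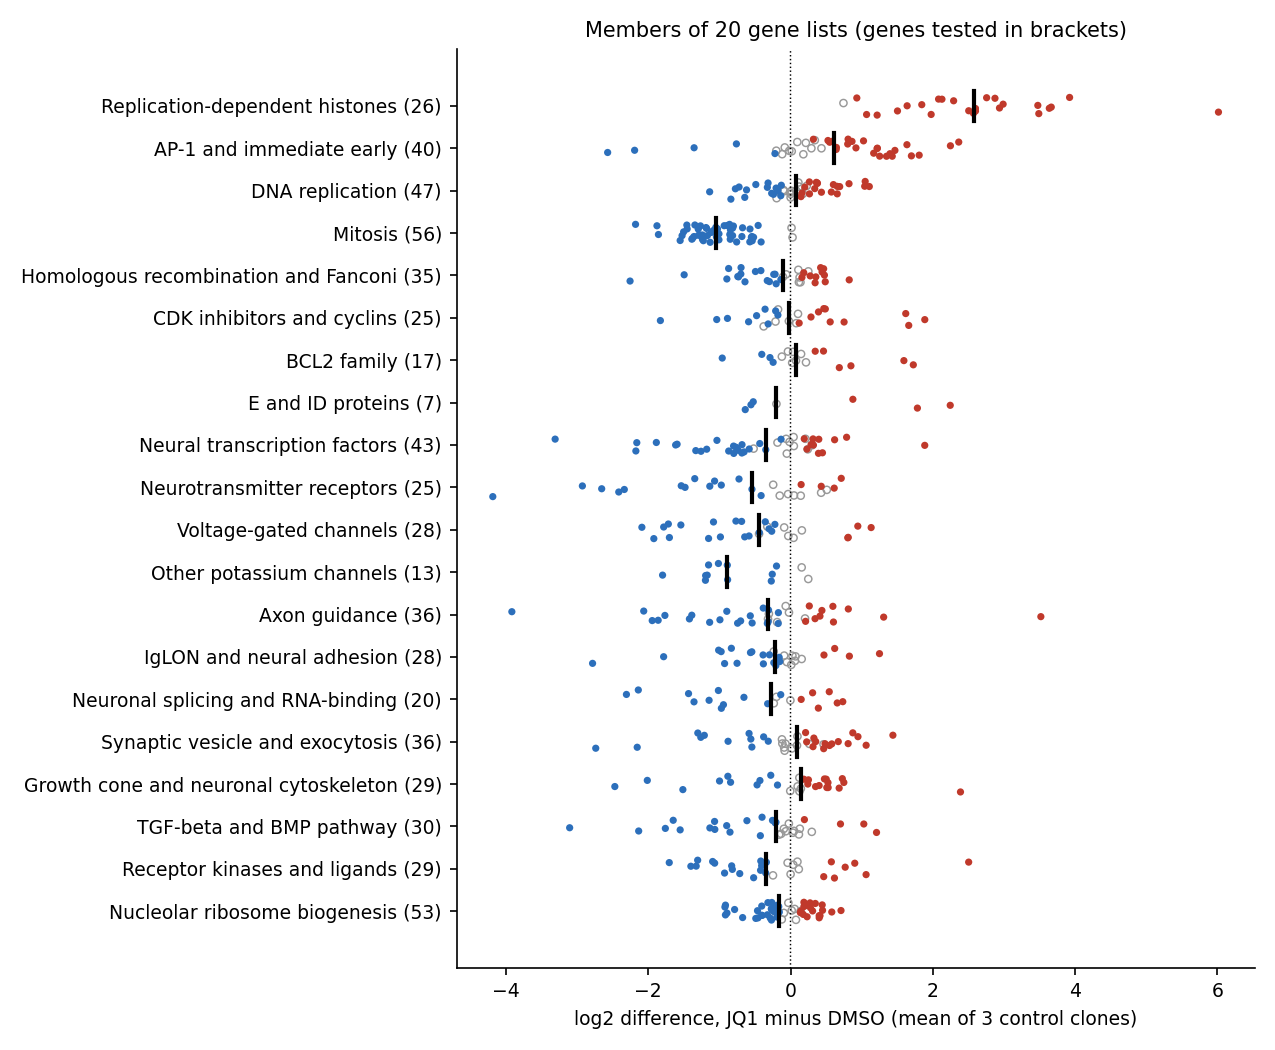
Log2 difference (x axis, JQ1 minus DMSO, mean of 3 control clones) of every tested member of 20 gene lists. Each point is a gene, red where it rose and blue where it fell past the threshold, open grey where it did not pass; the black bar is the list's median and the dotted line the median of all genes. The histone median (2.58) lies to the right and the mitosis (-1.05) and other potassium channel (-0.89) medians to the left.

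The largest single changes included genes with no place in these lists. By the naming rule, the 12 largest rises held 8 histone genes with MIR7-3HG, NPTX2, SAT1 and an unnamed noncoding transcript, and the 12 largest falls held SLC15A3, BANK1, GPR112, HTR1A, MYOF, SEMA3D, MGAT3, CCDC141, TRDC and a few transcripts that have a clone identifier in place of a gene name. SLC15A3, a lysosomal peptide and histidine transporter, ran from 103 to 594 normalized counts with DMSO, median 138, and from 1.04 to 14.4 with JQ1, median 5.41, a difference of -5.01 ± 0.33 (adjusted p = 3.94e-05). BANK1, a scaffold protein best known from B cells, ran from 189 to 369 normalized counts with DMSO, median 236, and from 3.12 to 26.9 with JQ1, median 6.23. CCDC141 ran from 258 to 398 normalized counts with DMSO, median 342, and from 11.5 to 38.2 with JQ1, median 23.8, with clone differences of -3.96, -3.60 and -3.75. The groups of SLC15A3, BANK1 and CCDC141 did not overlap, but those of TRDC, the T cell receptor delta constant gene, did, since it ran from 2.9 to 593 with DMSO. PEG10, a retrotransposon-derived gene and one of the most abundant RNAs here, ran from 24993 to 52584 normalized counts with DMSO, median 42788, and from 154637 to 258603 with JQ1, median 182071, a rise of 2.33 ± 0.10; it was named after its values were seen.

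MIR7-3HG, the host transcript of the microRNA gene MIR7-3, had the largest rise outside the histones. It ran from 3.87 to 15.3 normalized counts with DMSO, median 8, and from 204 to 336 with JQ1, median 259. Its groups were far apart, and the difference was 4.81 ± 0.28 (adjusted p = 2.73e-05), 4.08 in clone 3 and 5.67 in clone 13 (adjusted p of the clone difference = 0.0184). The libraries measured the host RNA and not the mature microRNA, which is shown to identify it, with bases 2 to 8, the seed, in capitals (RefSeq, GRCh38.p14, chromosome 19, plus strand, chr19:4770700-4770723).
hsa-miR-7-5p: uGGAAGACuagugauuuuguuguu

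The 3 clones shared most of the response and differed in part of it. At least 2-fold differences numbered 644 up and 1361 down in clone 3, 554 and 1266 in clone 10, and 626 and 1260 in clone 13. The response was in 1 direction in all clones for 11337 of 14449 genes. The clone by treatment interaction passed for 1554 genes (10.8%), of which 1146 kept 1 direction in all clones. In this test the libraries of a clone are the replicates, so it speaks of these 3 clones only, and it passed for 396 genes without replicate 3 and 2239 without JQ1 replicate 1 of clone 13. CDKN1A (2.25, 1.82, 1.59 in clones 3, 10 and 13) and TUBB3 (2.97, 2.38, 1.82) rose most in clone 3, where mitotic genes fell least.

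Among genes that passed the clone test with a mean of at least 50, the 8 with the largest range were CSAG3, SLC38A5, CDH23, CPLX3, FABP5, LRMP, FAM43A and FAM46C. SLC38A5, an amino acid transporter, fell by 4.07 in clone 3 and 3.99 in clone 10 but by 1.10 in clone 13, where it was at 3.00 or less with DMSO. FABP5, a fatty acid binding protein, was at no more than 3.18 normalized counts in clone 3 with either treatment and fell by 3.10 in clone 10 and 3.70 in clone 13. Its adjusted p was 0.0535 without clone 10 and 0.0626 without clone 13. CDH23 did not pass on average (-0.11, adjusted p = 0.847), with -1.48 in clone 3 and 1.34 in clone 13.

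Set beside the 3 NEUROD1-edited clones, most genes lower in control clones had the same direction, and the size of the response passed a test of difference for a subset. Of the 1212 genes at least 2-fold lower in control clones, 1169 were also lower in edited clones, with a median of -1.41 in control and -1.19 in edited clones; these genes were chosen for their response in control clones. The test of the difference in response (limma on 6 clones, 35 libraries, without JQ1 replicate 1 of edited clone 12, which held 31825795 reads and 495 genes at 10 or more normalized counts and at least 10 times the highest of the other 35 libraries, SFTPA2 among them at 12390.1) passed for 1127 genes (7.8%), and for 137 of the 1212. It rests on few clones: 12 genes passed without clone 10 and 95 without clone 3, 100 without clone 13 and 191 without edited clone 15, and 470 passed with all 36 libraries. HTR1A had a response of -4.64 in edited clones, and the difference between genotypes (0.45 ± 0.37, SE; adjusted p = 0.462) did not pass, which does not show that the responses are equal. The same held for SCN2A (-2.17 in edited clones; difference 0.08 ± 0.20, adjusted p = 0.833).

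Of the 137 genes at least 2-fold lower that passed this test, 43 were under 10 normalized counts in edited clones with DMSO. BANK1 also passed, at 299.7 normalized counts there. The falls of BHLHE22, RPH3A, CHRNA3, SLC15A3, SCRT2 and ELAVL4 passed too. The RNA of these last genes was low in edited clones with either treatment, at most 10.6 normalized counts on average with DMSO. BHLHE22 was at 10.1 ± 12.6 normalized counts (SD over 3 clones) with DMSO and 9.05 ± 12.5 with JQ1 in edited clones. Its response there was -0.36 (limma adjusted p of the difference = 0.0186). RPH3A was at 0.219 ± 0.379 with DMSO (0.00829), CHRNA3 at 10.6 ± 3.02 (0.0263) and SLC15A3 at 0.579 ± 0.547 (0.00955). SCRT2 and ELAVL4 were at 0 in every edited library used. RPH3A, SLC15A3, SCRT2 and ELAVL4 had so little RNA before treatment that a fall in edited clones could not be measured. For BHLHE22 and CHRNA3, at 10.1 and 10.6, there was little room for a fall, and CHRNA3 changed by -0.55. Rises differed too: VGF changed by 0.59 in edited clones, where it was at 24.1 with DMSO (adjusted p of the difference = 0.00746), and ID3 by 0.20, where it was already at 4840 ± 1849 with DMSO (0.0048). FOXM1 had responses of -2.18 in control and -1.43 in edited clones (0.0172).

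**Figure D5:**
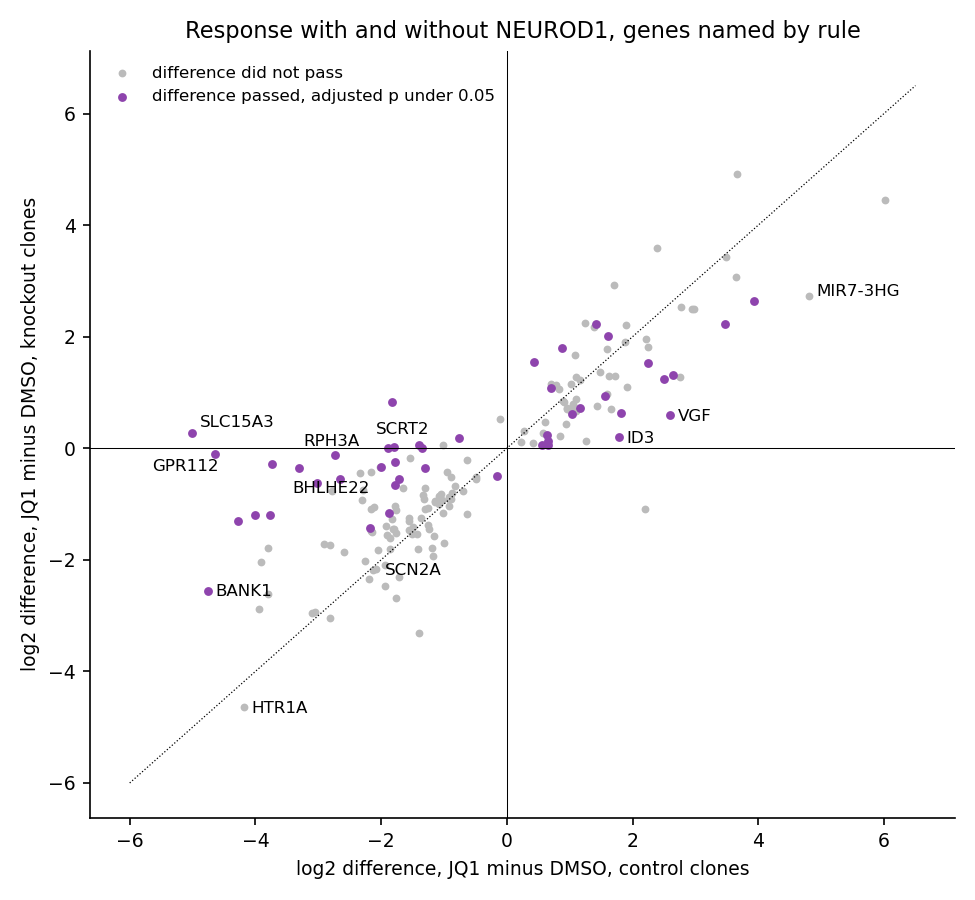
Response to JQ1 with and without NEUROD1 for the 181 genes named by rule. Each point is a gene, with its log2 difference (JQ1 minus DMSO) in control clones on the x axis and in edited clones on the y axis; the dotted line marks equal responses and purple points passed the test of the difference. SLC15A3, GPR112, BHLHE22 and RPH3A lie near 0 on the y axis (0.27, -0.11, -0.36 and -0.11), and HTR1A lies close to the line.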

How the data were processed

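RNA of 36 libraries (TruSeq Stranded mRNA, poly(A) selection) was analysed from 2 tables. The authors deposited normalized counts (a signal value per gene, gene counts divided by a size factor per library) for 19014 genes, and FPKM for 57820 genes. Per the submitters' processing notes cutadapt, STAR and RSEM were used with hg19; tool versions and the strand setting of the counting were not given in the sources used here. Every normalized count was a whole multiple of 1 read (100% of values within 0.001 reads), so depth could be recovered.

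A gene was tested if 9 or more of 18 libraries reached 10 normalized counts. Differences of mean log2(value + 1) per clone were tested with limma 3.58.1 (R 4.3.3; trended prior, two-sided, Benjamini-Hochberg adjusted over all genes tested, threshold 0.05); fold changes are on the log2(value + 1) scale, which understates low genes. On the recovered reads, edgeR 4.0.16 called 9114 genes and DESeq2 1.42.0 called 8519. Clone differences used single libraries, and the genotype comparison 6 clones without 1 edited clone 12 library (JQ1 replicate 1, 31825795 reads, with 495 genes far above the other libraries). The main test was also run on simulated data with 200 changed genes. Far more genes passed here, so that run does not show how the test behaves in these data. Whether replicates of a clone were separate cultures is not stated, so tests over single libraries measure the spread between these libraries, which may be technical. Same-numbered DMSO and JQ1 libraries did not deviate together (r from -0.094 to 0.148 in 9 pairs), so replicate numbers were not used to pair them.

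Genes named by rule are NEUROD1, HEXIM1, BRD2 and MYC; the 12 largest rises and falls with a mean of at least 50; up to 4 of the largest calls of each list, or else its 2 most abundant members; and the 8 with the largest range over clones among genes that passed the clone test with a mean of at least 50. Members and lists were chosen with earlier results of these data known, and other genes named in the text, and the motif TTTGAA, were chosen after their values were seen. Promoter windows and the microRNA come from RefSeq (GRCh38.p14), matched by symbol; no coordinates were converted between builds. Near-identical histone copies share reads. Other settings tried were pseudocounts, filters, scalings, priors, the FPKM table and left-out clones, replicates or libraries.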

Additional observations from a re-analysis of the deposited data

Results flagged for a closer look

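The response to JQ1 differed between control and NEUROD1-edited clones for 32 of the genes described above for their response (limma, adjusted p under 0.05). The values below are control minus edited differences on the log2 scale. SYP, named above only as a marker, also passed, with -0.12 in control and 0.96 in edited clones (difference -1.08, limma adjusted p = 0.0142).

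For 13 genes that fell in control clones the mean in edited clones with DMSO was at most 10.6 normalized counts. Whether this low level limited a fall there was not tested. In edited clones OAS3, SLC15A3, NTRK3 and KCTD16 changed by 0.82, 0.27, 0.05 and 0.02. SCRT2 and ELAVL4 changed by 0 there, and the others were lower with JQ1. The transporter SLC15A3 differed by -5.28, GPR112 by -4.53 and TRDC by -3.44. BHLHE22 differed by -2.95, OAS3 by -2.65, RPH3A by -2.62, OAS1 by -2.4 and CHRNA3 by -2.11. SCRT2 differed by -1.89, KCTD16 by -1.82, ADCYAP1 by -1.54, NTRK3 by -1.45 and ELAVL4 by -1.36.

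For 6 genes that fell in control clones and were at 23.1 normalized counts or more in edited clones with DMSO, the fall was also larger in control clones. CCDC141 differed by -2.58, BANK1 by -2.2, ME1 by -1.17, CACNB4 by -1.13, FOXM1 by -0.75 and KIF14 by -0.72. Genes that rose more in control clones were VGF (2.01), ID3 (1.59), SAT1 (1.32), HIST1H2BC (1.28), FGFR3 (1.27), ATF3 (0.72), ATF5 (0.62), HLA-E (0.53) and PKM (0.44). CHGA (-1.11), ID2 (-0.92), ODC1 (-0.8) and BRD2 (-0.41) rose less in control than in edited clones. The number of genes passing this test moved from 12 to 1633 as single clones were left out.

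CEACAM6 stood at 80.4 normalized counts in JQ1 replicate 1 of clone 13, outside the genes tested, and at 0 in the other 17 control libraries. Its part in the results was not tested.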

How the results depend on the processing

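For the genes named by rule, 3925 alternative values kept direction and side of the threshold, 26 lost the threshold, 13 gained it and 6 changed sign. For the counts, 51 alternative values stayed within a set ratio of the main count (2239 against 1554 still did) and 8 moved past it. The sign changes were in CDH23 (0.23 with pseudocount 10, 0.049 with FPKM, 0.41 with edgeR, 0.57 without clone 3 and 0.017 without replicate 3; leave-one-out range -0.84 to 0.57) and FAM43A (-0.016 without clone 3; range -0.016 to 1.29), whose responses differed in sign between clones. The count of at least 2-fold changes, 1743, was 2624 without a filter and 1127 with at least 50 normalized counts, through the number of genes tested, and 1742 to 1804 when a clone, replicate or library was left out. The count past the threshold, 9126, ranged from 7325 to 8798 in those settings. The clone interaction count, 1554, was 396 without replicate 3 and 2239 without JQ1 replicate 1 of clone 13. The genotype count, 1127, was 470 with all 36 libraries, 95 without clone 3, 12 without clone 10, 100 without clone 13, 191 without clone 15, 1204 without clone 12 and 1633 without clone 2-1; apart from fewer clones, the cause was not tested. With a replicate block on single libraries 10630 genes passed and 1733 at least 2-fold, against 10657 and 1733 without it. Counts under about 10 limit what can be said of genes near 0 in a clone.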
